A study of Mus musculus with 6 samples.

Results

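Small nucleolar RNA (snoRNA) host genes are noncoding genes that carry snoRNAs within their introns. The set described here holds 10 of them, Gas5, Snhg1, Snhg3, Snhg4, Snhg5, Snhg6, Snhg8, Snhg12, Snhg15 and Snhg17, out of 78317 gene rows in the deposited table. They were picked by symbol, with values of the knockdown and control libraries already known, so their own values are given as a description and without a test. Where a symbol had several rows, the row with the highest summed count was taken. All 10 were annotated as long noncoding RNA (lncRNA) genes, all 10 contained at least 1 annotated snoRNA on their own strand, and all 10 were among the 13372 genes with enough counts to be tested.

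RNA was sequenced from MCEC, a cell line described in the labels as mouse cardiac endothelial. In the Fat4 knockdown group (ShFat4, 3 libraries) the cells carried a short hairpin RNA directed at Fat4, a large atypical cadherin linked to planar cell polarity and Hippo signalling. In the control group (3 libraries) the genotype was wild type. The sources used here do not say whether the control cells carried a hairpin without a target, whether the knockdown was 1 clone, or whether replicates were separate cultures. The p-values thus reflect only how far these libraries spread, and that spread may be technical.

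Library totals ran between 10509069 and 11538010 counts in the knockdown and between 10305810 and 11870091 in the control. Fat4 itself had 8.5, 10 and 9 counts in the knockdown libraries, against 10, 22 and 31.5 in the control libraries, so the groups met at control replicate 1. Its log2 fold change was -1.17 (SE 0.35, edgeR quasi-likelihood test with Benjamini-Hochberg adjustment, adjusted p = 0.0330). The call was lost in 7 of the 16 other settings that gave Fat4 an adjusted p. These were limma-voom, the GC content and length correction, and each fit that left out 1 library except control replicate 1. DESeq2 and a stricter count filter gave Fat4 no adjusted p. Of 15 endothelial markers, 5 were at 0 in all 6 libraries (Vwf, Erg, Cldn5, Tie1 and Emcn). The 15 summed to 99.9 to 106 CPM (counts over the normalised library size) in the knockdown, against 103 to 110 CPM in the control. Mesothelial markers summed to 1464 to 1512 CPM in the knockdown and 1651 to 1745 CPM in the control, and fibroblast markers to 1789 to 1951 CPM in the knockdown and 2388 to 2472 CPM in the control. Cardiomyocyte markers summed to 16.7 to 21.6 CPM in the knockdown and 8.61 to 10.6 CPM in the control, with Myh6, Myh7, Ryr2 and Nppa at 0 in every library, and leukocyte markers to 3.62 to 4.07 CPM in the knockdown and 3.44 to 4.55 CPM in the control. The part of any of these in the values below was not tested, and in bulk RNA fewer cells of a type and less RNA per cell cannot be told apart.

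A snoRNA is freed from the host's intron once the host is spliced, and then joins proteins to form a particle that modifies ribosomal RNA. Box C/D snoRNAs guide methylation of the ribose, and box H/ACA snoRNAs guide the change of uridine to pseudouridine, while a few members take part in cutting the ribosomal RNA precursor. The spliced host RNA itself is often short-lived, because ribosomes read its short open frames and nonsense-mediated decay then removes it. Many host genes start at a run of pyrimidines, the terminal oligopyrimidine (TOP) feature they share with ribosomal protein genes, whose translation follows mTORC1 and the binding protein LARP1.

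The annotated snoRNA rows inside the hosts numbered 35, of which 10 lay in Gas5 and 8 in Snhg1. Snhg12 held 5 and Snhg17 held 3. Snhg3, Snhg4 and Snhg5 held 2 each, and Snhg6, Snhg8 and Snhg15 held 1 each. Rows are annotation entries, and some share a place. A further row in Gas5 lay within Snord80, and a further row in Snhg12 covered nearly the same bases as Snora16a. The snoRNAs below show what the hosts carry, 1 of the box C/D kind and 2 of the box H/ACA kind. The sequences are those of GENCODE M21 (GRCm38), matched by gene identifier. Their places in the deposited GRCm39 coordinates are chr1:160865652-160865728 on the plus strand for Snord47 in Gas5, chr4:132079633-132079837 on the minus strand for Snora73b in Snhg3, and chr3:123301586-123301715 on the minus strand for Snora24 in Snhg8. Capitals mark TGATGA and CTGA in the box C/D snoRNA, and the ACA that lies 3 bases from the end in the box H/ACA snoRNAs.
Snord47: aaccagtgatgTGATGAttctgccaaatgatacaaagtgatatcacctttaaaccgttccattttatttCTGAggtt
Snora73b: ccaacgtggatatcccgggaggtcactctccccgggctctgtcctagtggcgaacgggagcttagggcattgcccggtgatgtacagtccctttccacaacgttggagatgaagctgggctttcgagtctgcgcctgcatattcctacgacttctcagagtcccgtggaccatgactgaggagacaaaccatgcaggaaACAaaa
Snora24: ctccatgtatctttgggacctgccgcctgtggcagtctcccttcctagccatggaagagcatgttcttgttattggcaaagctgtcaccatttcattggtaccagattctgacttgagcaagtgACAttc

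Of the 35 rows, 15 had TGATGA in the first 25 bases and CTGA in the last 20, 10 had ACA in the last 7 bases, 5 had neither and 5 had no sequence in that annotation. Among all snoRNA sequences of the annotation, 20.6% had the C/D letters, 45.2% had the ACA letters and 34.2% had neither. Only the strand of the snoRNA was searched, and a sequence with the C/D letters was not counted again for ACA.

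RefSeq promoter windows (GRCm38.p6) were matched by symbol to the hosts, and 10 start sites of 8 hosts were found. The windows of 5 of them are shown, 45 bases before the start and 25 from the start on, because they span the highest and the lowest fold changes and both kinds of start. Capitals mark the unbroken run of C and T that holds the start base. The windows lie at chr1:161035121-161035190 (plus strand, the downstream start of Gas5), chr19:8723442-8723511 (plus), chr3:123508312-123508381 (minus), chr4:132308633-132308702 (plus) and chr11:6528736-6528805 (minus).
Gas5: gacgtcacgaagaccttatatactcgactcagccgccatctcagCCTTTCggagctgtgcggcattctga
Snhg1: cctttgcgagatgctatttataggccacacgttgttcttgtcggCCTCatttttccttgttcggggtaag
Snhg8: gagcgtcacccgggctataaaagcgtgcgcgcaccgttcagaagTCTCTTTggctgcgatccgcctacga
Snhg12: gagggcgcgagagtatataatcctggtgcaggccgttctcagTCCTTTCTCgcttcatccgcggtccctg
Snhg15: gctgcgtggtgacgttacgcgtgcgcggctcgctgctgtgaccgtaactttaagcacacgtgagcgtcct

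A run of at least 5 pyrimidines over the start base was present at 4 of the 10 starts, and in 10.1% of 32851 RefSeq starts of the same window length. The runs were 6 bases long at Gas5, 7 at Snhg8, 9 at Snhg12 and 6 at 1 of the starts of Snhg17, while Snhg1 had 4. The letters TATA, searched from 40 to 20 bases before the start on both strands, were present at 5 of the 10 starts and in 5.49% of all starts. They were found at Gas5, Snhg1, Snhg5, Snhg8 and Snhg12. Over the whole 300 bases and both strands, TGACGTCA was present at 2 of the 10 starts (Gas5 and Snhg15) and in 1.79% of all, and CACGTG at 1 of the 10 (Snhg15) and in 7.15% of all. These matches are letters in a window and not measured binding.

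Gas5, named for its accumulation in growth-arrested cells, lies at chr1:160861793-160866118 on the plus strand (GRCm39). Its normalised level was 395, 401 and 410 CPM in the knockdown libraries, against 327, 268 and 249 CPM in the control libraries. The groups did not overlap, and control replicate 1 was the nearest to the knockdown. The log2 fold change was 0.51 (SE 0.08), or 1.43-fold.

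Snhg1, host of Snord22 and other box C/D snoRNAs, lies at chr19:8700319-8703812 on the plus strand. It had 403, 422 and 418 CPM in the knockdown libraries, against 302, 274 and 227 CPM in the control libraries. All 3 knockdown values lay above the highest control value. The log2 fold change was 0.63 (SE 0.08), or 1.55-fold.

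Snhg5 (chr9:88377321-88405615, minus strand), host of Snord50a and Snord50b, had 85.5, 80.7 and 87.2 CPM in the knockdown libraries, against 73.3, 73.7 and 66.0 CPM in the control libraries. Its groups were apart by a smaller margin, with a log2 fold change of 0.25 (SE 0.06). Snhg6 (chr1:9926809-10014504, minus strand), host of Snord87, had 103, 106 and 96.3 CPM in the knockdown libraries, against 94.6, 89.9 and 82.3 CPM in the control libraries. Knockdown replicate 3 and control replicate 1 nearly met, and the log2 fold change was 0.20 (SE 0.07).

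Snhg3, which carries Snora73b and Snora73a, lies at chr4:132075325-132080997 on the minus strand. The family of Snora73, also known as U17, acts in cutting the ribosomal RNA precursor. Snhg3 had 241, 228 and 224 CPM in the knockdown libraries, against 183, 158 and 140 CPM in the control libraries. The groups did not overlap, and the log2 fold change was 0.53 (SE 0.08), or 1.44-fold. A correction for GC content and gene length lowered it to 0.31.

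Snhg8, host of Snora24, lies at chr3:123301192-123302578 on the minus strand. It had 242, 240 and 223 CPM in the knockdown libraries, against 195, 187 and 175 CPM in the control libraries. The knockdown libraries were all higher, with a log2 fold change of 0.34 (SE 0.06), which the same correction lowered to 0.19. Snhg15, host of Snora9 and known in human cells as a short-lived transcript that responds to stress, lies at chr11:6473829-6478870 on the minus strand. It had 42.6, 41.6 and 45.3 CPM in the knockdown libraries, against 28.1, 28.6 and 23.8 CPM in the control libraries. Its log2 fold change of 0.69 (SE 0.08), or 1.62-fold, was the highest of the 10, and the gap between the groups was wider than the spread within either of them.

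Snhg4 (chromosome 18), host of Snora74a, differed little, with 104, 97.3 and 96.6 CPM in the knockdown libraries, against 94.0, 94.3 and 90.8 CPM in the control libraries. The groups were just apart, and the log2 fold change was 0.10 (SE 0.06), or 0.04 with library-size scaling. Snhg17 (chr2:158195620-158204194, minus strand) had 27.6, 27.6 and 26.9 CPM in the knockdown libraries, against 20.9, 25.7 and 22.2 CPM in the control libraries. Control replicate 2 came close to the knockdown, and the log2 fold change was 0.25 (SE 0.09). The GC content and length correction raised it to 0.38, within the threshold.

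Snhg12, whose introns hold Snora44, Snora61, Snora16a and Snord99, lies at chr4:132035905-132038762 on the plus strand and was the exception. It had 7.90, 8.57 and 7.76 CPM in the knockdown libraries, against 6.90, 11.3 and 8.12 CPM in the control libraries. Control replicate 1 was the lowest of the 6 and control replicate 2 the highest, while control replicate 3 lay among the knockdown libraries. The log2 fold change was -0.12 (SE 0.15), with -0.25 when control replicate 1 was left out and 0.10 when control replicate 2 was. At 85.67 to 88.67 counts a library in the knockdown and 71.17 to 128.17 in the control, Snhg12 had the fewest counts of the 10.

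**Figure D1:**
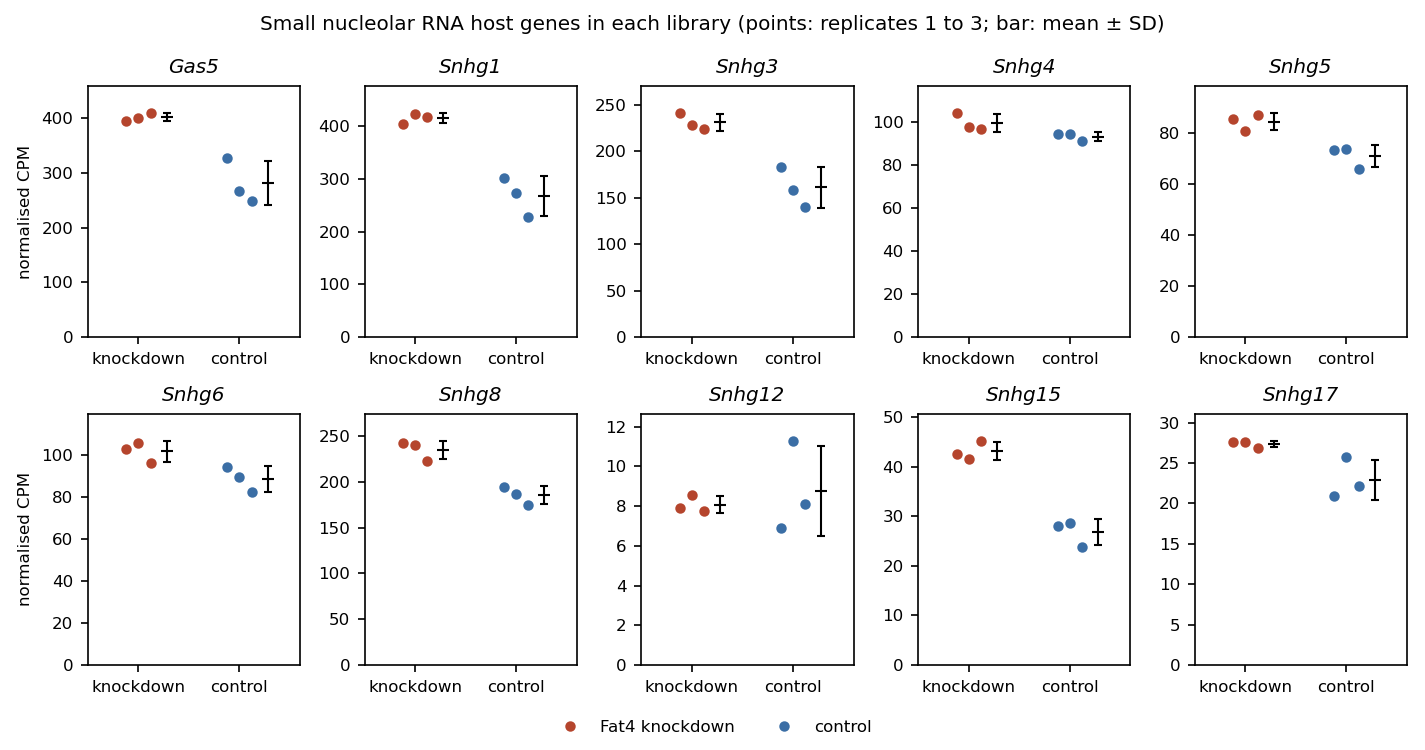
Normalised CPM of each of the 10 host genes in the 3 Fat4 knockdown libraries (left of each panel) and the 3 control libraries (right), with a bar for the mean ± SD. Every knockdown point lies above every control point in all panels but Snhg12, and the control points of Gas5, Snhg1 and Snhg3 spread more than the knockdown points.

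In all, 9 of the 10 hosts had groups that did not overlap with the knockdown higher, where 17.4% of all tested genes did so. Within the threshold of an edgeR adjusted p under 0.05, 6 of the 10 lay higher in the knockdown (Gas5, Snhg1, Snhg3, Snhg5, Snhg8 and Snhg15), beside 8.94% of all tested genes called higher, and 0 lay lower, beside 8.44% called lower. The other 4 were Snhg4, Snhg6, Snhg12 and Snhg17. Since the hosts were chosen with this comparison known, the counts describe the set and carry no test.

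The median log2 fold change of the 10 hosts was 0.30, against -0.01 for all tested genes and 0.07 for the 1104 tested lncRNA genes. Among those lncRNA genes, 9.87% were called higher and 3.35% lower in the knockdown. Added together, the hosts reached 1653, 1653 and 1635 CPM in the knockdown libraries, against 1326, 1211 and 1085 CPM in the control libraries. The knockdown libraries were nearly alike in this sum and the control libraries were not. As a share of all counts, the sum was 0.161, 0.161 and 0.163% in the knockdown and 0.133, 0.124 and 0.113% in the control.

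The control libraries differed among themselves in the same order for several hosts. Control replicate 1 was the highest and control replicate 3 the lowest control library for Gas5, Snhg1, Snhg3, Snhg6 and Snhg8. The coefficient of variation was 1.89% in the knockdown and 14.5% in the control for Gas5. It was 2.40% in the knockdown and 14.2% in the control for Snhg1, and 3.97% in the knockdown and 13.6% in the control for Snhg3. For Snhg4 the spread ran the other way, with 4.35% in the knockdown and 2.07% in the control.

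The share of counts on 90 genes with ribosomal protein symbols moved alongside, at 14.3, 13.9 and 13.6% in the knockdown libraries, against 12.8, 12.2 and 11.6% in the control libraries. Its mean was 14.0% ± 0.366 in the knockdown and 12.2% ± 0.619 in the control (SD, n = 3 each, p = 0.1 in a two-sided exact permutation test, which cannot go lower with 3 against 3). Within the control, this share too was highest in replicate 1 and lowest in replicate 3. Its part in the values of the hosts was not tested. With ribosomal protein and mitochondrial genes left out of the scaling, the median of the hosts was again 0.30.

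Levels of different hosts were compared per kilobase of the gene length given in the deposited table. On this scale of normalised CPM per kilobase, Snhg3 stood highest at 245, 231 and 227 in the knockdown libraries, against 186, 161 and 142 in the control libraries. Snhg8 came next at 169 ± 7.31 in the knockdown and 134 ± 7.14 in the control (SD, n = 3 each). Snhg1 followed at 119 ± 2.85 in the knockdown and 76.6 ± 10.9 in the control, and Gas5 at 95.1 ± 1.79 in the knockdown and 66.6 ± 9.65 in the control. Snhg1 and Gas5 were apart in the knockdown libraries and overlapped in the control libraries.

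Lower down came Snhg4, at 21.3 ± 0.927 CPM per kilobase in the knockdown and 19.9 ± 0.413 in the control. Snhg5 was at 19.0 ± 0.757 in the knockdown and 16.0 ± 0.978 in the control, and Snhg6 at 17.7 ± 0.877 in the knockdown and 15.5 ± 1.08 in the control. Snhg5 and Snhg6 overlapped in both groups. Snhg15 reached 8.56 ± 0.375 CPM per kilobase in the knockdown and 5.32 ± 0.526 in the control. The lowest were Snhg17, at 3.24 ± 0.0432 in the knockdown and 2.72 ± 0.295 in the control, and Snhg12, at 2.83 ± 0.152 in the knockdown and 3.07 ± 0.794 in the control. This pair overlapped in the control only.

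**Figure D2:**
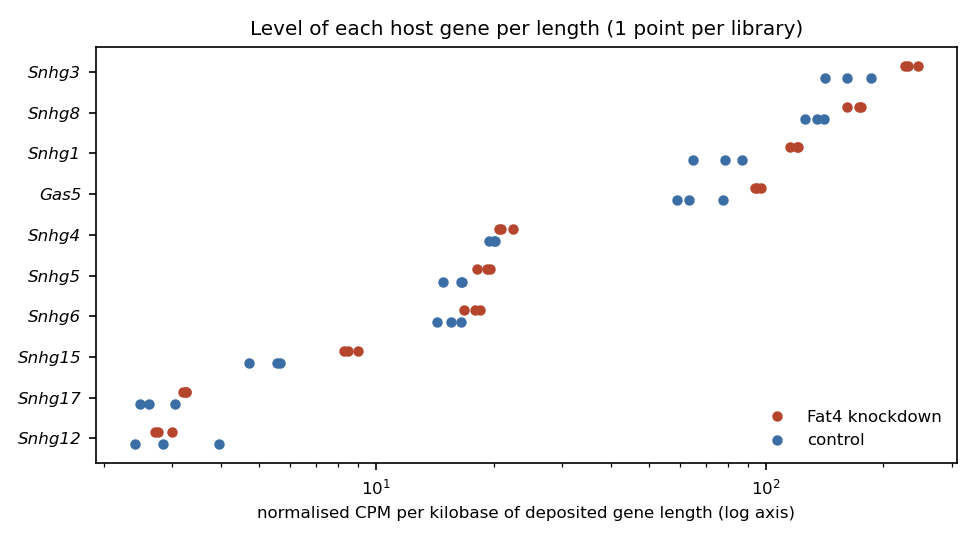
Normalised CPM per kilobase of deposited gene length (log axis) for the 10 host genes, 1 point per library, Fat4 knockdown above control within each row. Snhg3 stands highest at 142 to 245, and Snhg12 and Snhg17 lie lowest, at 2.41 to 3.95.

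The length behind this scale differs in kind between hosts. It was 100% of the genomic span for Snhg1, Snhg8, Snhg12 and Snhg15, 98.5% for Snhg17, 97.7% for Gas5 and 94.3% for Snhg4. Reads from introns thus counted towards these hosts. It was 17.4% of the span for Snhg3, 15.7% for Snhg5 and 6.55% for Snhg6. A host whose annotated length includes its introns therefore stands lower per kilobase than its spliced RNA alone would.

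Centred on each gene's own mean, the median pattern of the hosts in log2 CPM was 0.18, 0.18 and 0.14 in the knockdown libraries, against -0.09, -0.12 and -0.24 in the control libraries. Snhg8 lay nearest to this median, with a root mean square difference of 0.029 over the 6 libraries. Snhg12 lay farthest, at 0.292. Among genes that are no host here, with a mean of at least 10 CPM leaving out predicted symbols, the nearest 5 were Hmgn1 at 0.019, Snrpd1 at 0.027, Tbca at 0.029, Itpr3 at 0.029 and Tmem60 at 0.030. Their log2 fold changes were 0.29, 0.31, 0.26, 0.32 and 0.32 in that order, which the choice by pattern fixes in direction. With the correction for GC content and gene length, Tbca was at 0.03, Snrpd1 at 0.17 and Itpr3 at 0.52. The call of Itpr3 was lost without knockdown replicate 2, control replicate 2 or control replicate 3.

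Other noncoding snoRNA hosts were put in a list that, like the hosts, was drawn up with earlier results of these data known. Of 12 listed, 9 had enough counts to be tested, and 5 of these rose in the knockdown while 0 fell (edgeR), beside 8.94% and 8.44% of all tested genes. At an unadjusted p under 0.05, 8 of the 9 were higher and 1 lower, and DESeq2 and limma-voom each called 5 higher and 0 lower. The median log2 fold change of the 9 was 0.42, against -0.01 for all tested genes. The count of 5 ran from 3 without knockdown replicate 1 to 7 without control replicate 1.

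Zfas1, host of a family of box C/D snoRNAs, rose to 190, 194 and 182 CPM in the knockdown libraries, against 128, 134 and 114 CPM in the control libraries, a log2 fold change of 0.59 (SE 0.07, edgeR adjusted p = 5.22e-05). Epb41l4aos rose to 72.4 ± 4.64 CPM in the knockdown, against 52.7 ± 5.28 CPM in the control (log2 fold change 0.46, edgeR adjusted p = 0.00112). Dancr, known for holding back differentiation, rose to 29.9 ± 1.90 CPM in the knockdown, against 21 ± 3.42 CPM in the control (log2 fold change 0.52, edgeR adjusted p = 0.00312). These 3 kept their calls in all 19 other settings.

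Snhg9 rose to 20.4 ± 1.62 CPM in the knockdown, against 13 ± 3.82 CPM in the control (log2 fold change 0.67, edgeR adjusted p = 0.0195). That call was lost without knockdown replicate 1, knockdown replicate 2 or control replicate 2. Snhg9 lies within the span of Rps2 on the other strand, at 1723 ± 105 CPM in the knockdown and 1786 ± 74.9 CPM in the control. Whether the counting used the strand is not given, so the level of Snhg9 carries that uncertainty. Snhg7 rose to 76.4 ± 4.16 CPM in the knockdown, against 63.2 ± 3.40 CPM in the control, a log2 fold change of 0.28 (edgeR adjusted p = 0.00978) that lost its call without knockdown replicate 1 or control replicate 3. Short of the threshold were Snhg10 at a log2 fold change of 0.42, Snhg16 at 0.28 and Snhg20 at 0.25, with edgeR adjusted p = 0.127, 0.0569 and 0.0510 in that order. Snhg16 passed it in 5 other settings and Snhg20 in 6. Snhg18 pointed the other way, at 20.1 ± 1.42 CPM in the knockdown and 23.1 ± 2.04 CPM in the control (log2 fold change -0.20, edgeR adjusted p = 0.151). Snhg11, Snhg14 and Rian had too few counts to be tested.

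**Figure D3:**
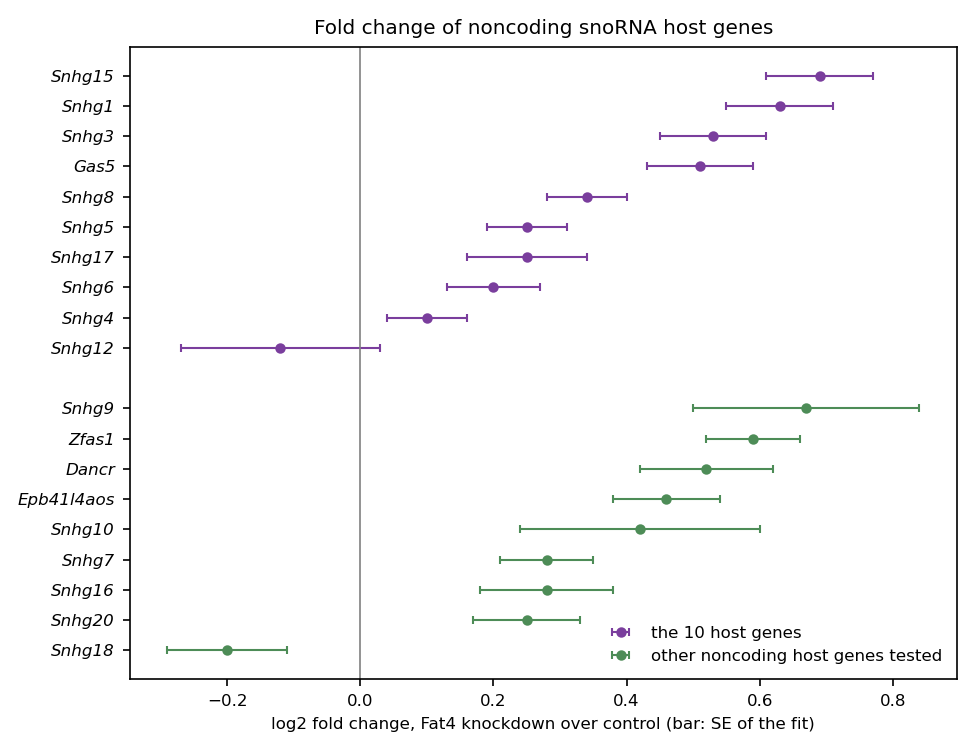
Log2 fold change, Fat4 knockdown over control, of the 10 host genes (upper block) and of 9 other noncoding host genes (lower block), with bars for the SE of the fit. Snhg15 at 0.69 and Snhg12 at -0.12 bound the upper block, and Snhg9 at 0.67 and Snhg18 at -0.20 the lower.

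Many snoRNAs sit in genes that encode proteins. Of 19 such hosts without a ribosomal protein product, 3 rose and 0 fell, beside 8.94% of all tested genes called higher and 8.44% called lower. The median log2 fold change was 0.05. The 3 were Eif4a2, a translation initiation helicase, at 0.37 (edgeR adjusted p = 0.000887), Eef1b2, an elongation factor subunit, at 0.26 (edgeR adjusted p = 0.00877), and Taf1d, a subunit of the RNA polymerase I selectivity factor, at 0.20 (edgeR adjusted p = 0.0483). The call of Taf1d was lost in 10 of 19 settings and that of Eef1b2 in 3. The count of 3 ran from 1 to 4 with a library left out, being 1 without knockdown replicate 2, control replicate 2 or control replicate 3. At an unadjusted p under 0.05, 4 were higher and 2 lower, DESeq2 called 4 and 0, limma-voom 3 and 0, and scaling by library size alone 2 and 2.

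Of 17 ribosomal protein genes that host snoRNAs, 9 rose and 0 fell, beside 8.94% of all tested genes called higher and 8.44% called lower. The median log2 fold change was 0.21. Rps12 was at 0.45 (edgeR adjusted p = 0.00336), Rpl13a at 0.42 (edgeR adjusted p = 0.0212) and Rps3 at 0.38 (edgeR adjusted p = 0.00251). The call of Rpl13a was lost without knockdown replicate 1, knockdown replicate 2 or control replicate 2. In CPM, Rps12 reached 3462 ± 249 in the knockdown and 2541 ± 331 in the control (SD, n = 3 each). The count of 9 ran from 5 without knockdown replicate 2 or control replicate 2 to 10 without control replicate 1, and was 6 without knockdown replicate 1. With no adjustment of p, 10 were higher and 0 lower at 0.05, and DESeq2 and limma-voom each called 9 and 0.

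Of 17 other TOP messenger RNAs, 6 rose and 0 fell, beside 8.94% of all tested genes called higher and 8.44% called lower. Their median log2 fold change was 0.12. Btf3, whose product is the beta subunit of the nascent polypeptide-associated complex, was at 0.40 (edgeR adjusted p = 0.00124). Naca, the alpha subunit of that complex, was at 0.34 (edgeR adjusted p = 0.00206), and Eif3e, an initiation factor subunit, at 0.38 (edgeR adjusted p = 0.00196). The count of 6 was 3 without knockdown replicate 2, control replicate 2 or control replicate 3 and 4 without knockdown replicate 1, and library-size scaling called 4 higher and 1 lower. With p unadjusted, 9 were higher and 1 lower, and DESeq2 and limma-voom each called 7 and 0. This list shares Eef1b2, Eef2, Tpt1 and Rack1 with the list of protein-coding hosts.

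Of 18 genes for core and assembly proteins of the snoRNA particle, 3 rose and 0 fell, beside 8.94% of all tested genes called higher and 8.44% called lower. Their median log2 fold change was 0.05. Znhit3, an assembly factor of box C/D particles, was at 0.67 (edgeR adjusted p = 0.0157), Nop10, a core protein of H/ACA particles, at 0.27 (edgeR adjusted p = 0.0144), and Snu13, a core protein of C/D particles, at 0.18 (edgeR adjusted p = 0.0390). The calls of Nop10 and Snu13 were lost with the GC content and length correction, at 0.12 and 0.10. The count of 3 was 0 without knockdown replicate 1, and 1 without control replicate 2 or control replicate 3 and with the GC content and length correction. At an unadjusted p under 0.05, 3 were higher and 0 lower, and DESeq2 and limma-voom each called 3 and 0.

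Of 14 nonsense-mediated decay factors, 2 rose and 0 fell, beside 8.94% of all tested genes called higher and 8.44% called lower. Their median log2 fold change was 0.07. Magoh, a subunit of the exon junction complex, was among those that rose, at 0.21 (edgeR adjusted p = 0.0206). The 2 calls fell to 0 without knockdown replicate 2, control replicate 2 or control replicate 3 and with library-size scaling, and to 1 without knockdown replicate 3, and Magoh was at -0.05 with the GC content and length correction. At an unadjusted p under 0.05, 3 were higher and 1 lower, and DESeq2 and limma-voom each called 2 and 0.

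A last list held 12 genes of mTORC1, its regulators, its targets and LARP proteins, among them Mtor and Larp1. Of these genes edgeR called 0 in either direction, beside 8.94% of all tested genes called higher and 8.44% called lower. Their median log2 fold change was -0.10. Before adjustment 3 had a p under 0.05, all of them lower, and DESeq2 and limma-voom called 0. Library-size scaling and the fit without control replicate 1 each called 2 lower. Messenger RNA levels do not measure the activity of this pathway.

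**Figure D4:**
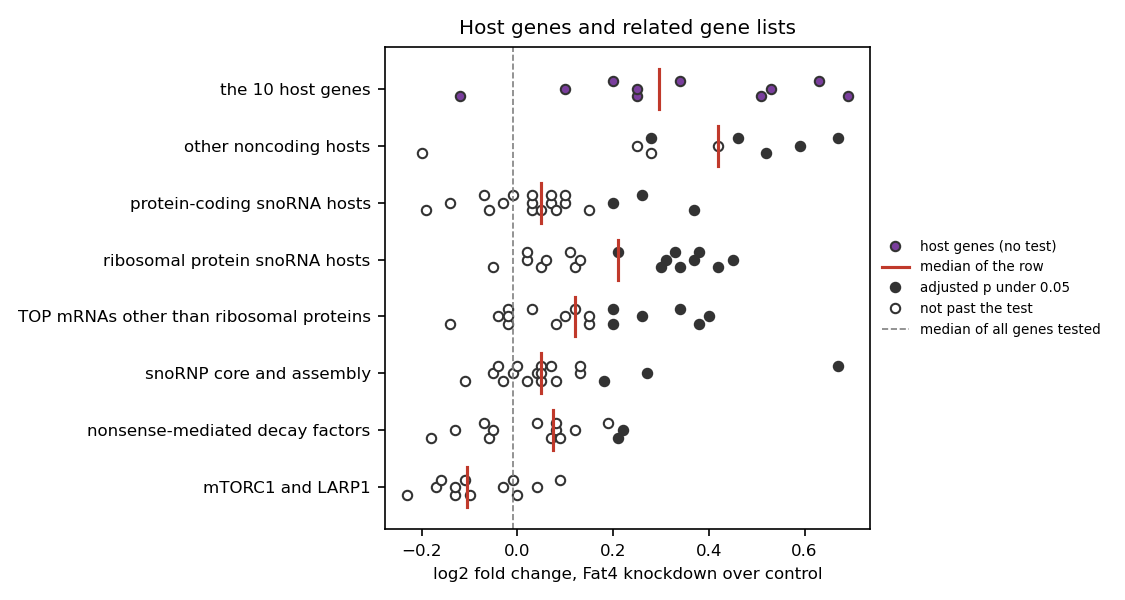
Log2 fold change, Fat4 knockdown over control, of the 10 host genes (top row, no test) and of the tested genes in 7 related lists, with filled points for an edgeR adjusted p under 0.05 and a bar for each row's median. The medians are 0.30 for the 10 hosts, 0.42 for other noncoding hosts and 0.21 for ribosomal protein hosts, and lie between -0.10 and 0.12 in the other rows.

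The 35 snoRNA rows inside the hosts have counts of their own in the table, though a read there may come from the unspliced host and may have been divided between host and snoRNA, so they are not independent of the host values. They summed to 58.5, 63.0 and 61.8 CPM in the knockdown libraries, against 63.6, 55.6 and 47.2 CPM in the control libraries. The groups overlapped, control replicate 1 being the highest of the 6. The mean was 61.1 ± 2.34 CPM in the knockdown and 55.5 ± 8.22 CPM in the control (SD, n = 3 each, ratio 1.10, two-sided exact permutation test p = 0.400, with 0.1 the smallest possible).

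Most of that sum came from Snora73b, whose sequence is given above, at 40.3, 42.8 and 41.4 CPM in the knockdown libraries, against 47.2, 39.4 and 32.8 CPM in the control libraries. Its knockdown values lay within the range of its control values (edgeR log2 fold change 0.07, adjusted p = 0.712), while its host Snhg3 was 1.44-fold higher in the knockdown. Without Snora73b, a sum chosen after its values were seen, the other 34 rows held 18.1, 20.1 and 20.4 CPM in the knockdown libraries, against 16.4, 16.2 and 14.4 CPM in the control libraries. These groups did not overlap, with a ratio of 1.25 (n = 3 each, p = 0.1 in the same two-sided exact permutation test, its smallest possible value).

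By host, the rows in Gas5 summed to 7.54, 9.45 and 9.20 CPM in the knockdown libraries, against 8.66, 6.89 and 7.40 CPM in the control libraries. Those in Snhg1 summed to 3.56, 3.13 and 3.89 CPM in the knockdown libraries, against 2.08, 3.0 and 2.52 CPM in the control libraries. The Gas5 rows overlapped between the groups, and the Snhg1 rows did not. Those in Snhg12 summed to 1.81, 1.6 and 2.16 CPM in the knockdown libraries, against 1.20, 1.31 and 0.650 CPM in the control libraries. They were apart with the knockdown higher, which Snhg12 itself was not, and 17.4% of all tested genes were apart in this direction. These sums rest on 20.34, 16.34 and 23.84 counts in the knockdown libraries and 12.34, 14.84 and 8 in the control libraries. The difference from the host was not tested. Those in Snhg4, at 2.69, 3.16 and 2.87 CPM in the knockdown libraries, against 2.34, 2.66 and 2.04 CPM in the control libraries, were just apart as well. Within Snhg1, Snord22 had a log2 fold change of 0.61 (edgeR adjusted p = 0.0655), short of the threshold. Snord47 in Gas5 had 1.77 ± 0.495 CPM in the knockdown and 1.62 ± 0.189 CPM in the control, and Snora24 in Snhg8 had 1.13 ± 0.251 CPM in the knockdown and 0.850 ± 0.121 CPM in the control, both with overlapping groups.

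All 1507 snoRNA rows of the table summed to 221, 237 and 228 CPM in the knockdown libraries, against 213, 189 and 168 CPM in the control libraries. These groups did not overlap, with a ratio of 1.20 (n = 3 each, p = 0.1 in the same two-sided exact permutation test, its smallest possible value). Libraries were made from messenger RNA, so reads on a snoRNA row cannot be told apart from reads of the unspliced host. The sums thus do not measure mature snoRNA. Rows within a host were also uneven. In Snhg3, Snora73b held 2686.5 counts over all libraries, and Snora73a, also 205 bases long, held 12. In Gas5 the rows ran from 3 counts at Gm26224 to 325 at Gm25789. What lies behind this unevenness was not tested.

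**Figure D5:**
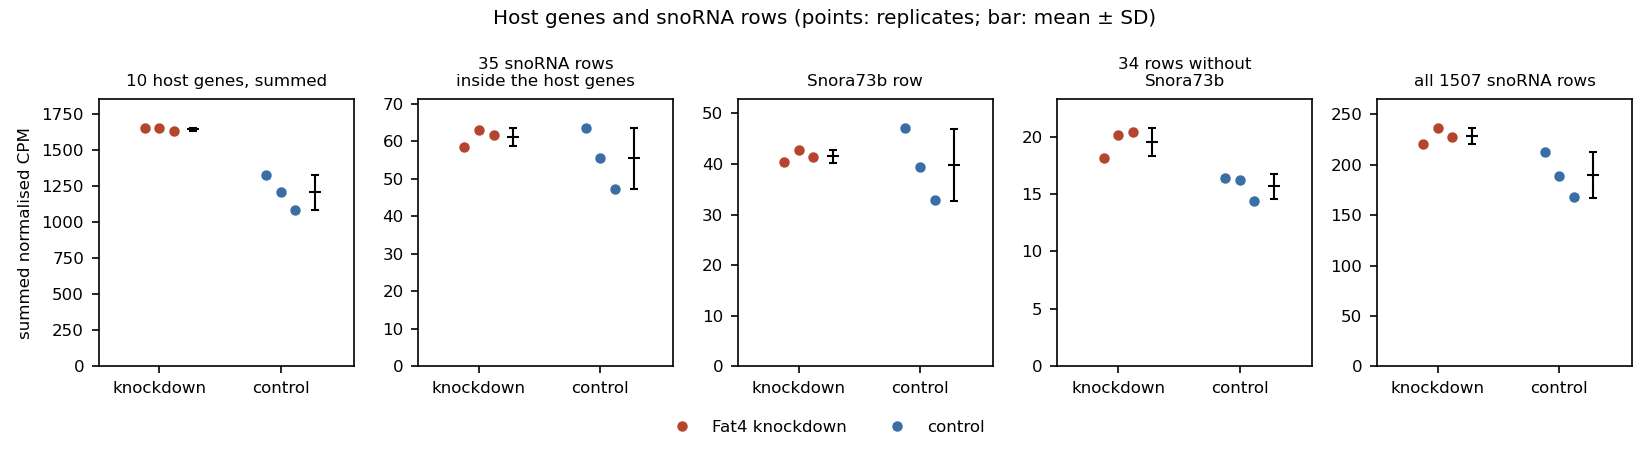
Summed normalised CPM of the 10 host genes, of the 35 snoRNA rows inside the hosts, of the Snora73b row, of the other 34 rows (a sum chosen after seeing the values) and of all 1507 snoRNA rows, in 3 Fat4 knockdown (left) and 3 control libraries (right), with a bar for the mean ± SD. The groups overlap for the 35 rows, where the control points run between 47.2 and 63.6, and for Snora73b, where they run between 32.8 and 47.2, and are apart in the other panels.

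Several hosts share their ground with other genes, and the sources used here do not say whether the counting used the strand. Slc3a2, an amino acid transporter subunit, runs antisense over 415 bases of Snhg1 and had 210 ± 14.0 CPM in the knockdown and 239 ± 13 CPM in the control (log2 fold change -0.19, edgeR adjusted p = 0.0525). Rcc1, the exchange factor of Ran, shares 5592 bases and the strand with Snhg3 and had 91.2 ± 2.09 CPM in the knockdown and 103 ± 6.22 CPM in the control (log2 fold change -0.18, edgeR adjusted p = 0.0622). For both neighbours the sign was opposite to that of the host.

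Zbtb37, antisense to Gas5 over 627 bases, was at a log2 fold change of -0.09 (edgeR adjusted p = 0.765), and Sgk3, antisense to Snhg6, at 0.01 (edgeR adjusted p = 0.973). Gm54508 and Mir1949, which lie inside Snhg4 on its strand, were at 0.64 and 0.18 (edgeR adjusted p = 0.194 and 0.757). A protein-coding row that carries the Snhg4 symbol too overlapped it on the same strand, with 5.38 ± 0.753 CPM in the knockdown and 7.24 ± 1.94 CPM in the control (log2 fold change -0.42, edgeR adjusted p = 0.126). The other 5 overlapping rows had too few counts to be tested. Where a read fell on 2 such features, the deposited counts could divide it. The levels of Snhg3 and Snhg4, which share their strand with other genes, carry this uncertainty. If the strand was not used, hosts with antisense neighbours, such as Gas5, Snhg1 and Snhg6, carry it too. The snoRNA rows inside every host add to it.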

How the data were processed

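Tagmented cDNA libraries from messenger RNA of 6 MCEC samples were sequenced, per the labels' protocols. Per the submitters' processing notes, the genome build was GRCm39 and the tools were STAR 2.7.11, fastp 0.24.0, FastQC 0.12.1, MultiQC 1.32 and SAMtools 1.22.1. The counting program, its strand and its annotation were not given in the sources used here. Estimated counts were deposited by the authors, and 29.0% of nonzero values are not whole (tolerance 1e-06). The CPM deposited by the authors equal count over library total, and the deposited gene length was used for levels per kilobase.

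Counts were rounded, and 92 spike-in rows were left out. edgeR 4.0.16 in R 4.3.3 tested knockdown against control (filterByExpr, TMM, robust quasi-likelihood, Benjamini-Hochberg adjusted p under 0.05). Robust estimation was taken from earlier processing of these data. Printed CPM are counts over TMM-scaled library size. The SE is the log2 fold change over the square root of F. Pathway and marker lists came from textbook knowledge. The hosts and lists were chosen with earlier results of these data known. Named genes were the 10 hosts, Fat4, tested noncoding hosts, up to 3 called genes of largest fold change per other list, the 5 genes nearest in pattern, and overlapping genes. 1 gene taken by this rule is not reported here.

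Alternatives were scaling by RLE, by upper quartile, by library size or without mitochondrial and ribosomal protein genes, no filter, at least 10 CPM in 3 libraries, DESeq2 1.42.0, limma-voom (limma 3.58.1), a replicate block, rounding down, a GC content and length correction (mgcv 1.9-3, with GC known for 95.6% of tested genes) and leaving out each library. Added after seeing the data were no robust estimation, and DESeq2 with its default independent filtering cutoff of 0.1. The DESeq2 cutoff was first left at that default and was changed to 0.05, to match the threshold, after its count of calls had been seen.

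On simulated counts of this comparison (13199 genes), edgeR recovered 34 of 50 genes changed 1.3-fold and 50 of 50 at each of 1.5-fold, 2-fold and 3-fold, with 18 of 202 calls false. No 2 libraries of a group agreed within sampling noise. The edgeR fit reported paired no samples by replicate number, and whether they were paired is not known.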

Additional observations from a re-analysis of the deposited data

How the results depend on the processing

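Gas5, Snhg1, Snhg3, Snhg8 and Snhg15 lay within the threshold in all 20 fits, Snhg5 in 17, Snhg17 in 5, Snhg6 in 2, and Snhg4 and Snhg12 in 0. These fits reuse the libraries with which the hosts were chosen, so the counts describe the set and carry no test. The hosts' median log2 fold change of 0.30 was 0.24 with library-size scaling, where the median of all genes was -0.069, and ran from 0.26 to 0.34 with a library left out. Hosts within the threshold numbered 5 to 7 with a library left out, where 527 to 1624 of 13589 to 13666 tested genes were called higher. They numbered 8 with upper-quartile scaling, where 1319 of 13372 tested genes were called higher. All genes called numbered 2324, but 1535 with DESeq2, 1498 with DESeq2 at its default filtering, and 1029 (without control replicate 2) to 3077 (without control replicate 1) with a library left out; the cause was not tested. Of these calls 51.4% were higher in the knockdown, 59.3% with DESeq2 and 33.0% with library-size scaling. Genes called in the related lists numbered 27, and 14 to 35 with a library left out. Magoh was at -0.05 with the GC content and length correction. The difference of 5.62 CPM in snoRNA counts inside the hosts, knockdown minus control, was 1.49 without control replicate 3 and 9.71 without control replicate 1.

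Same-numbered knockdown and control libraries had residual correlations of -0.202, -0.16 and 0.135 across genes. Those with unlike numbers ran from -0.2 to 0.266, the highest being knockdown replicate 2 with control replicate 1. Residuals centred on 3 libraries a group must mix signs, so these values cannot decide whether samples were paired. With the replicate block, 2001 genes were called, 6 hosts lay within the threshold at a median of 0.30, and 29 genes of the related lists were called. Depth, at 10305810 to 11870091 counts a library, limits low features most. A count of 0 allows 3 counts, or 0.253 to 0.291 CPM, and covers counting error only.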
